A study of Homo sapiens with 12 samples.

Results

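A set of 34 genes of glucose breakdown, lactate export and glycogen handling was taken by symbol from the deposited table of read counts, which lists 52859 usable genes. All 34 were in the table, and 32 had enough reads to be tested. The RNA was that of MDA-MB-231, a widely used human cell line derived from a triple-negative breast cancer. Each group of 3 libraries received 20 nM of one locked nucleic acid (LNA), a stabilised oligonucleotide that pairs with a complementary RNA, by Lipofectamine transfection, and cells were harvested on day 2. The groups were a control LNA, 2 LNAs against the mitochondrial asparagine tRNA (mtAsn-1 and mtAsn-2) and 1 LNA against the mitochondrial lysine tRNA (mtLys). All groups therefore share the cell line, the transfection reagent and the dose, and no untransfected cells are among the libraries.

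Glycolysis splits glucose into pyruvate in the cytosol and yields ATP and NADH. Lactate dehydrogenase restores NAD by reducing pyruvate to lactate, which leaves the cell through monocarboxylate carriers. Pyruvate dehydrogenase, inside the mitochondrion, converts pyruvate to acetyl-CoA unless the PDK kinases switch it off. Glycogen is the stored form of glucose, built and broken down by a small set of enzymes that meets glycolysis at glucose phosphate. Many of these genes are known targets of the hypoxia-inducible factor HIF, and tumour lines often express them strongly.

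The libraries held 17978825 to 37708993 counts, and log2 levels of tested genes correlated within groups at 0.993 to 0.996. The labels do not say whether replicates were separate cultures, so the p-values rest on variation among these libraries, part or all of which may be technical. Markers of the line were checked in all 12 libraries. VIM, a mesenchymal gene, was at 2952 to 3876 CPM (read counts scaled to the TMM-adjusted library size), and the hormone receptor genes ESR1 and PGR reached at most 0.286 and 0.0312 CPM, while the luminal keratin KRT19 was at 239 to 405 CPM. The summed level of 7 mesenchymal markers was 6693 to 7111 CPM in control, 7140.0 to 7628 after mtAsn-1, 6067 to 6305 after mtAsn-2 and 7110.0 to 7281 after mtLys. That of 7 luminal markers was 356 to 367 CPM in control, 355 to 420.2 after mtAsn-1, 259.7 to 295 after mtAsn-2 and 352 to 402 after mtLys. Of the leukocyte markers, CD3E had at most 1 read in a library, and the summed level of the 5 markers, most of it CD68, was 78.1 to 81.3 CPM in control, 96.2 to 122 after mtAsn-1, 90.7 to 101 after mtAsn-2 and 96.4 to 107 after mtLys. Of the 3 fibroblast markers DCN was at 0 in every library, and PDGFRB made up most of their sum. That sum was 9.32 to 12.2 CPM in control, 7.77 to 8.86 after mtAsn-1, 6.87 to 8.12 after mtAsn-2 and 8.59 to 8.93 after mtLys. The 3 endothelial markers summed to 10.8 to 13.1 CPM in control, 14.97 to 18.1 after mtAsn-1, 10.1 to 11.6 after mtAsn-2 and 16.5 to 18.5 after mtLys. Most of this endothelial sum was PECAM1. The part of these shifts in the results that follow was not tested.

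LDHA, which encodes the main lactate-forming subunit of lactate dehydrogenase, and SLC16A1, the lactate carrier MCT1, could not be read from this table. LDHA (chromosome 11, 18394389 to 18408425, plus strand, hg38) had 2, 3 and 2 reads in control, 1, 1 and 2 after mtAsn-1, 5, 1 and 1 after mtAsn-2 and 0, 2 and 3 after mtLys. SLC16A1 had 1 read in the 12 libraries together. Both genes are listed a further time on a scaffold outside the chromosomes with the same exon length (2760 and 4669 bases) and 0 reads. Of 2009 genes with such an equal-length scaffold copy, 1991 had under 100 reads over the 12 libraries, and the sources used here do not say how reads matching several places were handled. The processed pseudogene LDHAP4 was credited with 747 to 1632 reads per library. No level or change of LDHA or SLC16A1 is therefore given, and a share of LDHA in lactate dehydrogenase cannot be worked out.

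Several measured members also share exon sequence with another gene. ALDOA has 1406 of its 3939 exon bases in common with LOC112694756 on the same strand, GPI 2242 of 11043 with KIAA0355 and PFKFB4 666 of 5957 with UCN2. PFKM shares 609 exon bases with SENP1, SLC16A3 481 with CSNK1D, PDK2 2113 with SAMD14, HK1 79 with RPS15AP28 and TPI1 14 with SPSB2, all on the opposite strand, and the library kit named in the labels does not mark strand, so reads of such partners cannot be told apart there. These members are uncertain to that extent, as are genes with processed pseudogenes, whose listed copies held 0.26% of the member's reads for GAPDH, 1.18% for TPI1 and 1.88% for ALDOA.

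With mtAsn-2, most of the 32 tested members were lower than with the control LNA. After mtAsn-1 and mtLys more members were higher than lower. Among 52 further tested genes of these pathways, described below, 15 fell and 11 rose after mtAsn-2. Of the 32 tested members, 23 fell and 3 rose after mtAsn-2 (edgeR quasi-likelihood test, adjusted p under 0.05), against 27.0% of all 16051 tested genes lower and 24.1% higher. With mtAsn-1, 15 rose and 5 fell, against 24.3% of all genes higher and 24.2% lower. With mtLys, 12 rose and 4 fell, against 24.6% and 23.9%. These 3 comparisons share the control libraries, and the members were chosen with earlier results of these data known. The contrasts with all genes, here and below, therefore describe this list and are not a test of the pathway. The median log2 fold change of the members was -0.26 after mtAsn-2, 0.09 after mtAsn-1 and 0.05 after mtLys, and the median over all tested genes lay between -0.01 and 0.00 in each. Scaling by library totals alone, without TMM factors, gave 21 members lower and 6 higher after mtAsn-2, and among all genes 5159 higher and 3344 lower in place of 3862 and 4337.

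The changes were small for single genes. With mtAsn-2, 2 members passed the test with a change of at least 1.5-fold (ALDOA and PKM), against 14.8% of all tested genes. No member did so after mtAsn-1, against 13.7%, and 1 did after mtLys (PDK1), against 13.6%. Together the 34 genes took 2.68%, 2.76% and 2.88% of all counts in control, 2.82%, 2.84% and 2.87% after mtAsn-1, 2.38%, 2.37% and 2.39% after mtAsn-2 and 2.86%, 2.70% and 2.87% after mtLys. The mtAsn-2 libraries thus lay below all 9 others. In RNA from whole cultures, fewer cells that express a gene and less of its RNA per cell cannot be told apart.

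**Figure D1:**
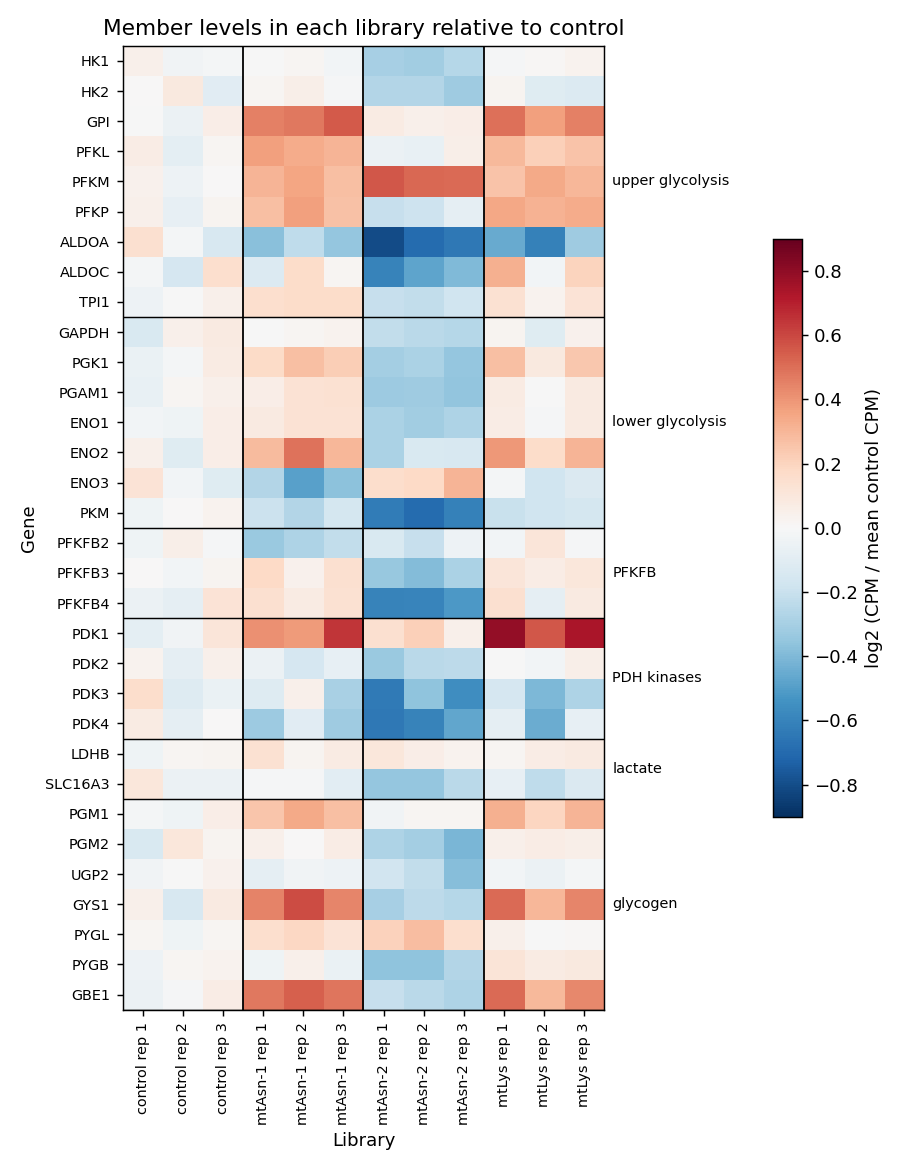
Level of each of the 32 tested members (rows, grouped by pathway step) in each of the 12 libraries (columns), as log2 of its CPM over the mean CPM of the 3 control libraries, with red above and blue below control. The mtAsn-2 columns are blue for most rows and red for PFKM, ENO3 and PYGL, the 3 members called higher. GPI, PDK1 and LDHB, which did not pass, also lie above the control mean in those columns. The mtAsn-1 and mtLys columns are red for GPI, PFKL, PFKP, PDK1, PGM1, GYS1 and GBE1.

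Across the 3 comparisons with control, 11 of the 32 members (34.4%) were called in opposite directions after mtAsn-2 and after mtAsn-1 or mtLys, against 975 of 16051 genes (6.07%). They were PFKP, TPI1, PGK1, PGAM1, ENO1, ENO2, ENO3, PFKFB3, GYS1, PYGB and GBE1. Of these, TPI1, PGK1, GYS1 and GBE1 kept both of their opposite calls, mtAsn-1 and mtAsn-2 against control, under all 19 alternative settings, and for the other 7 at least one of the opposed calls was lost under some setting. ALDOA and PKM were lower with all 3 LNAs and PFKM was higher with all 3, which is 6.25% and 3.12% of the members beside 12.7% and 10.8% of all genes.

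Sequence upstream of the members was read from RefSeq (GRCh38.p14), where 32 of the 34 had an entry. Both strands of the 250 bases before a single listed start per gene were searched for ACGTG and GCGTG, the core letters of hypoxia response elements. For several members, among them GPI, PFKFB4 and SLC16A3, that start lies within the gene as counted, and other starts were not searched. ACGTG was found for 12 of the 32 members (37.5%) and in 18.5% of 34788 promoters of the same length, and GCGTG for 14 (43.8%) and in 32.2%. Those promoters were all distinct listed sequences, neither limited to tested genes nor matched to the members in base composition. At least one of them was found for 15 of the 23 members that fell after mtAsn-2 and for 3 of the 8 other tested members with an entry, and in 43.1% of all promoters. The entries also include LDHA, which has matches and could not be tested, and lack PFKFB2 and SLC16A1. CACGTG, which contains ACGTG, was found for 4 members (12.5%) and in 6.31% of all promoters. A match is a description of the letters and not of binding.

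Stretches are shown for 4 members called in opposite directions against control, those that exceeded their mtAsn-2 level by the most after mtAsn-1. That of PYGL, which rose with both LNAs and holds neither motif, is shown beside them. PYGL was picked by those traits, so how motif and direction go together cannot be read from the displayed stretches. Each is the sequence just before the start site, 5′ to 3′ on the gene's strand, with matches on either strand in capitals. They lie at chr19:48993310-48993559, minus strand (GYS1), chr3:81761646-81761895, minus strand (GBE1), chr12:6914330-6914579, plus strand (ENO2), chrX:78103998-78104247, plus strand (PGK1) and chr14:50944484-50944733, minus strand (PYGL).
GYS1: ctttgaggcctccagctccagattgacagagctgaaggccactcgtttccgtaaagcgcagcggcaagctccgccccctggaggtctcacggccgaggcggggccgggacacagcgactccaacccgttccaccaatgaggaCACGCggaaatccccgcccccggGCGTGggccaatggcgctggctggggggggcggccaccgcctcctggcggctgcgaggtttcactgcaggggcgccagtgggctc
GBE1: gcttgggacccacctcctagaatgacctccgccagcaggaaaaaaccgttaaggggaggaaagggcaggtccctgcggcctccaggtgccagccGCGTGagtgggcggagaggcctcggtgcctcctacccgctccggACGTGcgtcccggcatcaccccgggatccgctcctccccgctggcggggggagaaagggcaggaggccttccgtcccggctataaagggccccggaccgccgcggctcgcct
ENO2: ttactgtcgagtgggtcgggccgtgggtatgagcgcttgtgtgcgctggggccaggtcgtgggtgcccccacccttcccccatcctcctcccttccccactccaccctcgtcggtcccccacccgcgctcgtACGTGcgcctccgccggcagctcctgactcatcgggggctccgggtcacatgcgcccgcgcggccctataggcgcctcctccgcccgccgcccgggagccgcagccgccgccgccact
PGK1: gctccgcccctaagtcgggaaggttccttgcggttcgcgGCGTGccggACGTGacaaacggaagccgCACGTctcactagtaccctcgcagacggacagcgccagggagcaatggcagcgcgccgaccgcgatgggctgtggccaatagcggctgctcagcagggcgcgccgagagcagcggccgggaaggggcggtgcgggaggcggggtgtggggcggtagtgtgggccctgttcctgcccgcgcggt
PYGL: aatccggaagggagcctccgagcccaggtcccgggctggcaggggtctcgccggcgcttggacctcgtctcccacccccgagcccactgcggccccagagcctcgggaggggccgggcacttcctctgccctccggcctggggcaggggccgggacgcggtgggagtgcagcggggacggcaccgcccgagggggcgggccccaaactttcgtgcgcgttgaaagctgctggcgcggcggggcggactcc
GYS1 and GBE1 each hold 2 matches, ENO2 holds 1 and PGK1 holds 3. Of the other members called in opposite directions, ENO1, ENO3, PFKFB3 and PYGB hold matches, and PFKP, TPI1 and PGAM1 hold none. ENO3 rose after mtAsn-2, as did PFKM, which holds none.

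The upper steps of glycolysis run from glucose phosphorylation to the triose phosphates. The hexokinases trap glucose in the cell as a phosphate. HK1, the broadly expressed form, had 353, 333 and 337 CPM in the control libraries, 339, 345 and 336 after mtAsn-1, 277, 274 and 286 after mtAsn-2 and 338, 343 and 348 after mtLys. Only the mtAsn-2 libraries were separate from the control libraries, all 3 lying below them (log2 fold change -0.29 ± 0.0368, SE, adjusted p = 1.5e-07). HK2, the inducible form, was lower as well, with 98 ± 6.5 CPM (SD, n = 3) in control and 80.5 ± 1.77 after mtAsn-2 (-0.29 ± 0.049, adjusted p = 1.45e-05). Neither passed after mtAsn-1 (adjusted p = 0.941 and 0.829) or mtLys (0.882 and 0.255). Per kb of exon, HK1 stood at 62.7 and HK2 at 16.7 CPM in control.

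GPI interconverts the hexose phosphates. It had 318, 307 and 332 CPM in the control libraries, 437, 444 and 469 after mtAsn-1, 336, 329.6 and 332 after mtAsn-2 and 449, 411 and 437 after mtLys. The mtAsn-1 (0.50 ± 0.041, adjusted p = 6.88e-11) and mtLys libraries (0.44 ± 0.0408, 6.58e-10) lay above all controls, and the mtAsn-2 libraries overlapped them (0.06 ± 0.0409, 0.221). KIAA0355, which shares exon bases with GPI, fell with all 3 LNAs (-0.34, -0.47 and -0.18). GPI passed after mtAsn-2 under library totals alone (0.14 in place of 0.06, adjusted p = 0.00583).

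The 3 subunits of phosphofructokinase, the main control point of glycolysis, moved apart after mtAsn-2 and all rose after mtAsn-1 and mtLys. PFKP, the platelet-type subunit and the most abundant of them, had 747, 688 and 735 CPM in the control libraries, 872, 936 and 867 after mtAsn-1, 627, 635 and 684 after mtAsn-2 and 922, 899.6 and 914 after mtLys. It rose after mtAsn-1 (0.30 ± 0.0416, adjusted p = 7.71e-07) and mtLys (0.33 ± 0.0415, adjusted p = 1.42e-07) and fell after mtAsn-2 (-0.16 ± 0.0416, adjusted p = 0.00229), a call lost under library totals alone (adjusted p = 0.0943). PFKL, the liver-type subunit, rose after mtAsn-1 (0.34 ± 0.0426) and mtLys (0.25 ± 0.0423) and did not pass after mtAsn-2 (-0.02 ± 0.0424, adjusted p = 0.7). PFKM, the muscle-type subunit, had 117, 110.3 and 114 CPM in the control libraries, 140.4, 145 and 137 after mtAsn-1, 168, 163 and 162 after mtAsn-2 and 136, 144 and 139.7 after mtLys. All 9 libraries of the tRNA LNAs were above the controls, those of mtAsn-2 the furthest (log2 fold change 0.53 ± 0.0407, SE, adjusted p = 1.12e-11). PFKM was also higher after mtAsn-2 than after mtAsn-1 (difference mtAsn-1 minus mtAsn-2 -0.22 ± 0.0405, adjusted p = 4.79e-05). SENP1, which overlaps PFKM on the other strand, differed from control by 0.25 ± 0.0592 after mtAsn-2 and 0.02 ± 0.0622 after mtAsn-1, and its part in the PFKM counts was not tested.

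As a share of the summed per-length level of the 3 subunits, PFKM made up 7.7%, 7.92% and 7.67% in the control libraries and 12.2%, 11.8% and 10.9% after mtAsn-2. It stayed at 7.78%, 7.71% and 7.73% after mtAsn-1 and 7.41%, 8.04% and 7.67% after mtLys. PFKP fell short of its control share of 65.1% ± 0.201 (SD, n = 3) after mtAsn-2, at 60.6% ± 0.557, and the groups did not overlap. A two-sided exact permutation test gave p = 0.1 for both PFKM and PFKP after mtAsn-2, the smallest that 3 libraries against 3 can give. Adjusted over all 63 such share tests, no p was below 0.166.

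Aldolase cleaves the hexose and TPI1 interconverts the resulting trioses. ALDOA had 51.1, 45.5 and 41.8 CPM in the control libraries, 35.6, 39.4 and 36.2 after mtAsn-1, 26.5, 28.6 and 29.6 after mtAsn-2 and 33.7, 30.2 and 36.9 after mtLys. It was below the controls in all 9 tRNA LNA libraries, with log2 fold changes of -0.32 ± 0.0736, -0.72 ± 0.0722 and -0.47 ± 0.0714 (adjusted p = 0.000795, 1.3e-08 and 8.54e-06). Its control level per kb of exon, 11.7 CPM, was under that of ALDOC (80.6) and of TPI1 (669). LOC112694756, which shares exon bases with it, fell after mtAsn-2 (-0.67 ± 0.117) and did not pass after mtAsn-1 (0.587) or mtLys (0.854). The sources used here do not say how reads in the shared bases were assigned. If those reads were left out, the level of ALDOA per kb would be too low, which was not tested. ALDOC fell after mtAsn-2 (-0.48 ± 0.112, adjusted p = 0.00507) and did not pass after mtAsn-1 (0.863) or mtLys (0.225), where it passed without mtLys replicate 2 (0.0419). TPI1 had 1760.0, 1818 and 1880.3 CPM in the control libraries, 2024, 2044 and 2044 after mtAsn-1, 1576, 1562 and 1610.0 after mtAsn-2 and 1998, 1864 and 1980.0 after mtLys. It rose after mtAsn-1 (0.16 ± 0.0371) and fell after mtAsn-2 (-0.20 ± 0.0371). With mtLys TPI1 was higher by 0.10 ± 0.037 (adjusted p = 0.0299), a call that failed without control replicate 1 (0.129) or 2 (0.0612) or mtLys replicate 1 (0.135) or 3 (0.105).

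The lower part of glycolysis, which yields ATP, held the most abundant members. GAPDH oxidises the triose phosphate and had the highest per-length level of the list, 4329.6 CPM per kb in control. It had 6826, 7723 and 7935 CPM in the control libraries, 7468, 7577 and 7644 after mtAsn-1, 6416, 6340.3 and 6271 after mtAsn-2 and 7639, 6961 and 7697 after mtLys. The mtAsn-2 libraries were below all others (log2 fold change -0.24 ± 0.0457, SE, adjusted p = 7.66e-05). Its level did not pass after mtAsn-1 (adjusted p 0.838) or mtLys (0.852). PGK1, which makes the first ATP of the pathway, had 1791, 1839 and 1966 CPM in the control libraries, 2103, 2255 and 2173 after mtAsn-1, 1507, 1532 and 1463 after mtAsn-2 and 2253, 1979 and 2209.6 after mtLys. It rose after mtAsn-1 (0.22 ± 0.0448, adjusted p = 0.000158) and mtLys (0.20 ± 0.0447, adjusted p = 0.000441) and fell after mtAsn-2 (-0.31 ± 0.0448, adjusted p = 1.21e-06), with no overlap with the controls in any of the 3.

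PGAM1 and ENO1 carry the pathway from phosphoglycerate to phosphoenolpyruvate. ENO1 had 5145, 5093 and 5454 CPM in the control libraries, 5544, 5733 and 5713 after mtAsn-1, 4289, 4217 and 4318 after mtAsn-2 and 5472, 5190.0 and 5538 after mtLys. It fell after mtAsn-2 (-0.29 ± 0.0373, adjusted p = 1.75e-07) and was slightly higher after mtAsn-1 (0.11 ± 0.0373, adjusted p = 0.0122), a call that failed without control replicate 2 (0.0619). PGAM1 fell after mtAsn-2 (-0.33 ± 0.0396, adjusted p = 4.36e-08) and was higher after mtAsn-1 (0.11 ± 0.0397, adjusted p = 0.0228), which did not hold without control replicate 1 (0.135) or mtAsn-1 replicate 2 (0.0549) or 3 (0.0887), or under library totals alone (0.0542). With mtLys neither ENO1 (adjusted p = 0.324) nor PGAM1 (0.288) passed.

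ENO2, the neuronal-type enolase, had 346, 309.9 and 348 CPM in the control libraries, 408, 468 and 412 after mtAsn-1, 274, 305 and 303 after mtAsn-2 and 438, 375 and 413 after mtLys. It rose after mtAsn-1 (0.36 ± 0.0676, adjusted p = 0.000403) and mtLys (0.29 ± 0.0672, adjusted p = 0.00228). Its fall after mtAsn-2 (-0.19 ± 0.0675, adjusted p = 0.0316) failed without control replicate 1 (0.117) or 3 (0.104), without mtAsn-2 replicate 1 (0.14) or 3 (0.0514), and under library totals alone (0.178). ENO3, the muscle-type enolase, was scarce and went the other way. It had 11.2, 10.1 and 9.51 CPM in the control libraries, 8.52, 7.31 and 7.94 after mtAsn-1, 11.4, 11.6 and 12.7 after mtAsn-2 and 10.1, 9.05 and 9.34 after mtLys. It fell after mtAsn-1 (-0.37 ± 0.0955, adjusted p = 0.00186), and its rise after mtAsn-2 (0.21 ± 0.0848, adjusted p = 0.0411) failed without control replicate 2 (0.119) or 3 (0.146), without mtAsn-2 replicate 2 (0.0511) or 3 (0.153), and by DESeq2 (0.0626).

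PKM, whose product pyruvate kinase makes pyruvate and ATP, was lower with each of the 3 LNAs. It had 4814, 4942 and 5047 CPM in the control libraries, 4317, 4101 and 4416 after mtAsn-1, 3189, 3049 and 3239.8 after mtAsn-2 and 4301, 4360.4 and 4416 after mtLys. The log2 fold changes were -0.21 ± 0.0374, adjusted p = 4.28e-05 after mtAsn-1, -0.64 ± 0.0376, adjusted p = 3.38e-14 after mtAsn-2 and -0.18 ± 0.0374, adjusted p = 0.000238 after mtLys. Every mtAsn-2 library lay below every mtAsn-1 and mtLys library. The table counts reads per gene, so its M1 and M2 splice forms cannot be told apart.

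**Figure D2:**
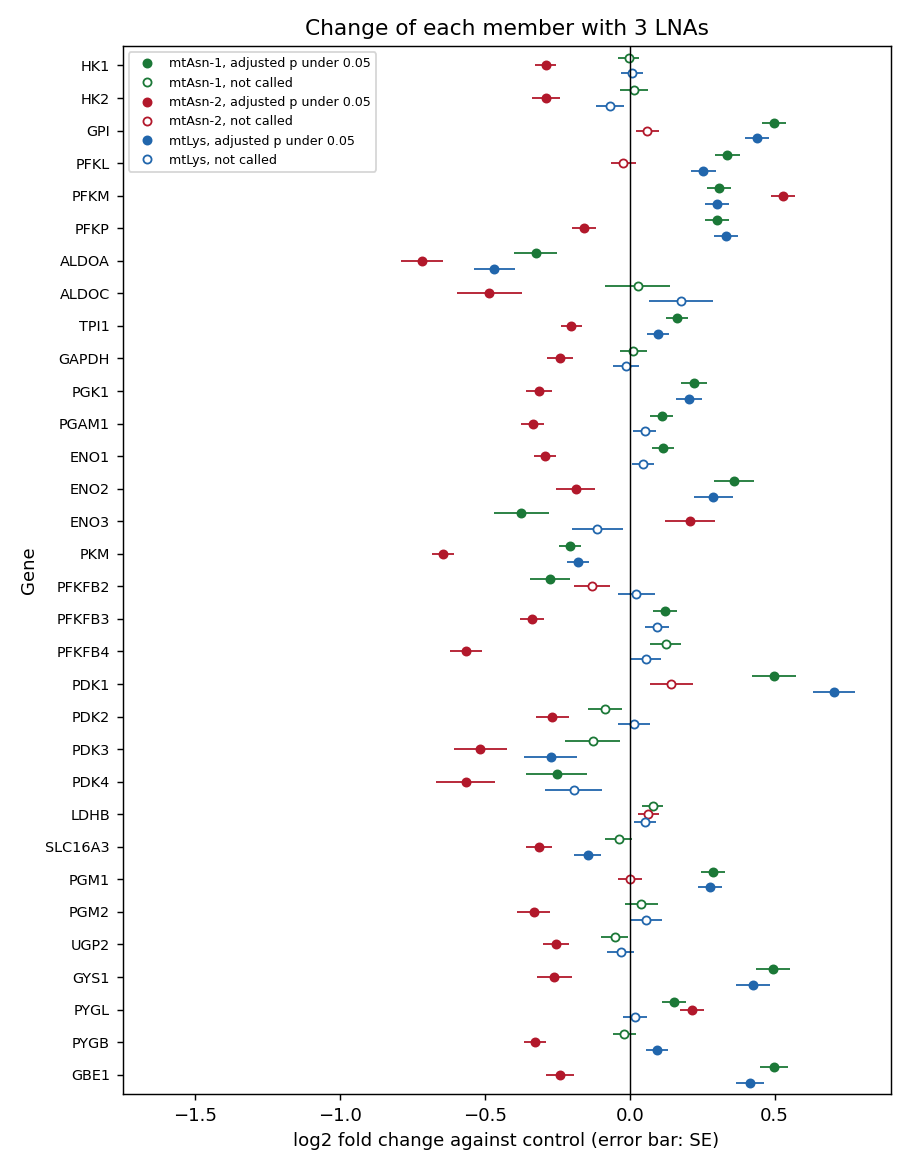
Log2 fold change against control (horizontal axis, error bar SE) of the 32 tested members after mtAsn-1 (green), mtAsn-2 (red) and mtLys (blue), 3 libraries a group. Filled points passed the edgeR test (adjusted p under 0.05), and the red points lie left of the green and blue points for all members other than PFKM, ENO3, PFKFB2, LDHB and PYGL.

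PFKFB enzymes set the level of the sugar bisphosphate that activates phosphofructokinase. PFKFB4 had 135, 132 and 153 CPM in the control libraries, 155, 147 and 154 after mtAsn-1, 92.4, 92.9 and 97.8 after mtAsn-2 and 155, 132 and 148 after mtLys. The mtAsn-2 libraries were below all others (log2 fold change -0.57 ± 0.0548, SE, adjusted p = 5.07e-09), while UCN2, its neighbour on the same strand, was higher (0.49 ± 0.0863). With mtAsn-1 PFKFB4 did not pass (0.12 ± 0.0547, adjusted p = 0.0658). It passed there without control replicate 3 (0.00581) or mtLys replicate 1 (0.0476) or 2 (0.0328), without the low-count filter (0.0239), with the replicate block (0.0439) and in the compared groups alone (0.0447). With mtLys it did not pass (0.421).

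PFKFB3, whose product mainly makes the activator, fell after mtAsn-2 from 161 ± 2.56 to 128 ± 4.43 CPM (n = 3 each, log2 fold change -0.34 ± 0.0417, SE, adjusted p = 9.63e-08). With mtAsn-1 it was higher (0.12 ± 0.0418, adjusted p = 0.018), a call that failed without control replicate 2 (0.0661) or mtAsn-1 replicate 1 (0.11) or 3 (0.0673). With mtLys it did not pass (0.09 ± 0.0413, adjusted p = 0.0629) but did without mtAsn-1 replicate 2 (0.0376) and in the compared groups alone (0.0395). PFKFB2, the heart-type form, fell after mtAsn-1 from 23.6 ± 0.793 to 19.5 ± 0.795 CPM (log2 fold change -0.27 ± 0.0677, SE, adjusted p = 0.00131). It did not pass after mtAsn-2 (-0.13 ± 0.0635, adjusted p = 0.089), other than without mtAsn-2 replicate 3 (0.0437), nor after mtLys (0.787). PFKFB4 made up 42.4% ± 1.61 of the per-length level of the 3 PFKFB genes in control and 38.4% ± 0.459 after mtAsn-2 (SD, n = 3), groups that did not overlap.

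The PDK kinases phosphorylate pyruvate dehydrogenase and so hold back the oxidation of pyruvate in the mitochondrion. PDK1 had 25.1, 26.2 and 28.8 CPM in the control libraries, 35.5, 34.8 and 41.7 after mtAsn-1, 29.6, 30.9 and 27.6 after mtAsn-2 and 46.3, 39.3 and 44.5 after mtLys. It rose after mtAsn-1 (0.50 ± 0.076, adjusted p = 7.03e-06) and mtLys (0.71 ± 0.0727, adjusted p = 1.86e-08). The rise after mtLys was the largest of any tested member in the 3 comparisons against control. With mtAsn-2 it did not pass (0.14 ± 0.0747, adjusted p = 0.113), but did without the low-count filter (0.0216), in the compared groups alone (0.0426) and under library totals alone (0.0167). PDK1 took 8.76%, 9.99% and 10.2% of the per-length level of the 4 kinases in control, 13.4%, 13% and 15.7% after mtAsn-1, 13.8%, 13.5% and 12.2% after mtAsn-2 and 15.9%, 14.9% and 15.2% after mtLys. Its annotated exons sum to 20254 bases, far more than those of PDK2 (4175), which lowers its per-length level.

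The other 3 kinases did not follow PDK1. PDK2 fell after mtAsn-2 (-0.27 ± 0.0563, adjusted p = 0.000231) and did not pass after mtAsn-1 (0.237) or mtLys (0.863). PDK3 had 26.3, 21.8 and 22.7 CPM in the control libraries, 21.8, 24.4 and 19.2 after mtAsn-1, 15.2, 18.4 and 16.1 after mtAsn-2 and 21.3, 17.8 and 19.5 after mtLys. It fell after mtAsn-2 (-0.52 ± 0.0915, adjusted p = 5.6e-05), and its fall after mtLys (-0.27 ± 0.0902, adjusted p = 0.0155) failed without control replicate 1 (0.115) or mtLys replicate 2 (0.0886). PDK4, which starvation induces in many tissues, stood at 11.1, 9.97 and 10.6 CPM in control and 6.77, 6.96 and 7.63 after mtAsn-2 (-0.57 ± 0.101, adjusted p = 2.59e-05). Its fall after mtAsn-1 (-0.25 ± 0.104, adjusted p = 0.0466) failed without any of 7 libraries (adjusted p between 0.0503 and 0.163: control replicate 1 or 3, replicate 1 or 3 of mtAsn-1, 1 or 2 of mtAsn-2, or 3 of mtLys) and by DESeq2 (0.072). With mtLys it did not pass (0.103).

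**Figure D3:**
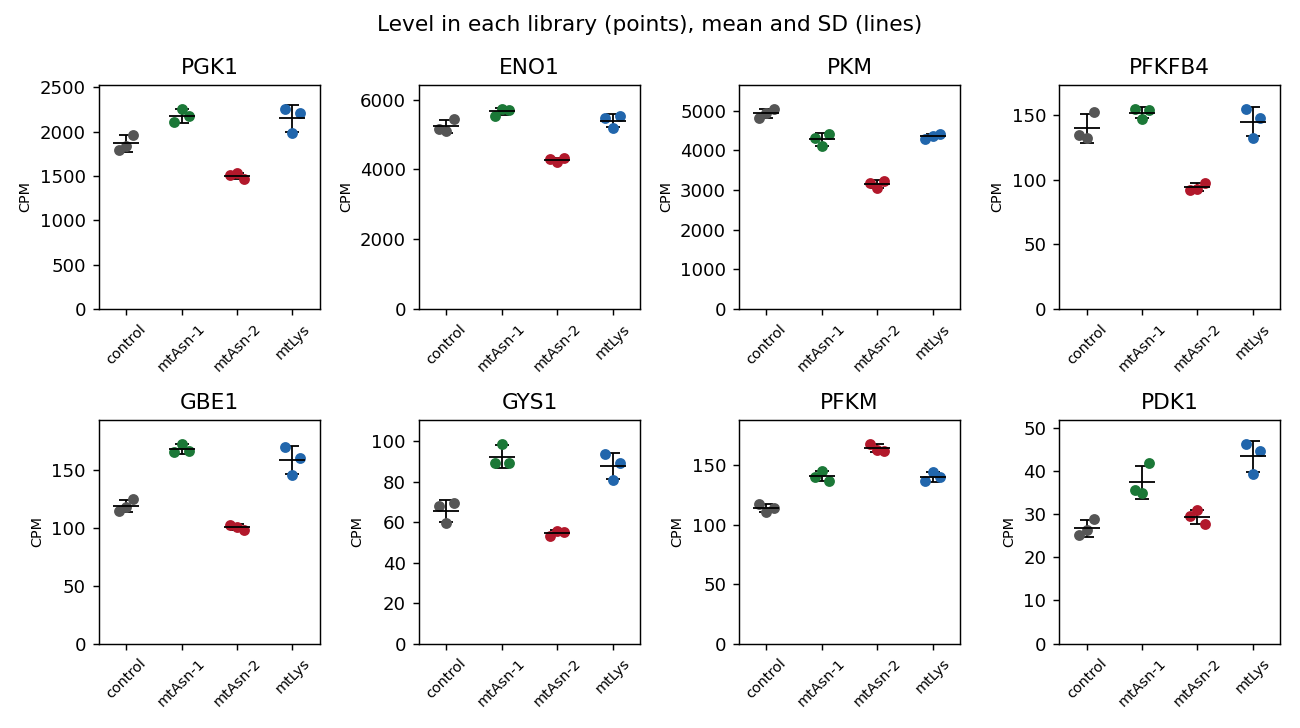
CPM (vertical axes, each from 0) of 8 members in each library (points), with the mean and SD of the 3 libraries of a group (black lines). PGK1, ENO1, PFKFB4, GBE1 and GYS1 are lowest after mtAsn-2, PKM is lower than control with each LNA, PFKM is highest after mtAsn-2 and PDK1 is highest after mtLys.

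Of the lactate genes, SLC16A3 and LDHB could be read. SLC16A3, the lactate exporter MCT4, had 1189, 1072 and 1069 CPM in the control libraries, 1104, 1101 and 1041 after mtAsn-1, 870.4, 870.2 and 939.8 after mtAsn-2 and 1053, 946 and 1014 after mtLys. It fell after mtAsn-2 (-0.31 ± 0.046, adjusted p = 2.08e-06) and did not pass after mtAsn-1 (0.529). Its fall after mtLys (-0.14 ± 0.0459, adjusted p = 0.0107) failed without control replicate 1 (0.101) or mtLys replicate 2 (0.0982). CSNK1D, on the other strand, fell with all 3 LNAs (-0.22, -0.31 and -0.21), and its part in the SLC16A3 counts was not tested. LDHB, the subunit that favours lactate use, was the one tested member called with none of the 3 LNAs, at 849 ± 20.9 CPM in control, 897 ± 33.4 after mtAsn-1, 888 ± 21.6 after mtAsn-2 and 881 ± 18.5 after mtLys (SD, n = 3). Its log2 fold changes were 0.08 ± 0.0377, adjusted p = 0.0866, 0.06 ± 0.0376, adjusted p = 0.155 and 0.05 ± 0.0376, adjusted p = 0.246. It passed after mtAsn-1 without mtAsn-1 replicate 2 (0.027) and after mtAsn-2 under library totals alone (0.00241).

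Among the glycogen enzymes, GYS1 and GBE1 showed the widest gap between the 2 asparagine LNAs of all 32 tested members. GYS1, the glycogen synthase that extends the chains and the gene of the 2 GCGTG matches above, had 68, 59.6 and 69.7 CPM in the control libraries, 89.5, 98.9 and 89.1 after mtAsn-1, 53.4, 55.8 and 55.1 after mtAsn-2 and 93.8, 81.1 and 89.2 after mtLys. GBE1, the branching enzyme, had 115, 118 and 125 CPM in the control libraries, 165, 173 and 166 after mtAsn-1, 103, 101 and 98.1 after mtAsn-2 and 169.7, 146 and 161 after mtLys. For both genes, every mtAsn-1 and mtLys library was above, and every mtAsn-2 library below, all controls. GYS1 rose after mtAsn-1 (0.49 ± 0.0597, adjusted p = 1.93e-07) and mtLys (0.43 ± 0.0586, adjusted p = 1.41e-06) and fell after mtAsn-2 (-0.26 ± 0.0599, adjusted p = 0.00075). GBE1 rose after mtAsn-1 (0.50 ± 0.0483, adjusted p = 1.55e-09) and mtLys (0.42 ± 0.0477, adjusted p = 3.35e-08) and fell after mtAsn-2 (-0.24 ± 0.0483, adjusted p = 0.000119).

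PGM1, the main phosphoglucomutase, rose after mtAsn-1 (0.29 ± 0.0417, adjusted p = 1.7e-06) and mtLys (0.28 ± 0.0414, adjusted p = 2.64e-06), from 238 ± 8.5 CPM in control to 290.1 ± 9.96 and 288 ± 13.4. With mtAsn-2 it stood at 238 ± 4.73 CPM (0.00 ± 0.0415, adjusted p = 0.993). PGM2 and UGP2, which makes the activated glucose that GYS1 uses, fell after mtAsn-2 (-0.33 ± 0.0565 and -0.25 ± 0.0457, adjusted p = 1.47e-05 and 3.09e-05) and passed with neither mtAsn-1 (0.594 and 0.37) nor mtLys (0.431 and 0.598).

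The 2 glycogen phosphorylases, which release glucose phosphate from the polymer, went in opposite directions after mtAsn-2. PYGB, the brain-type form, stood at 799.5, 834 and 842 CPM in control and 643, 643 and 688 after mtAsn-2 (-0.33 ± 0.0389, adjusted p = 4.8e-08). PYGL, the liver-type form, had 162, 156 and 162 CPM in the control libraries, 178, 182 and 174 after mtAsn-1, 185, 194 and 178 after mtAsn-2 and 165, 159.5 and 161 after mtLys. It rose after mtAsn-2 (0.21 ± 0.0403, adjusted p = 5.43e-05) and mtAsn-1 (0.15 ± 0.0409, adjusted p = 0.00265) and did not pass after mtLys (0.737). PYGL made up 33.5%, 34.6% and 31.2% of the 2 genes' per-length level after mtAsn-2, against 26.2%, 24.6% and 25.2% in control (two-sided exact permutation p = 0.1, the smallest possible). PYGB did not pass after mtAsn-1 (0.734). With mtLys PYGB was higher (0.09 ± 0.0388, adjusted p = 0.0474), a call lost on leaving out any of 9 libraries, all but mtAsn-1 replicate 2, mtAsn-2 replicate 3 and mtLys replicate 2 (adjusted p 0.0506 to 0.176), and under library totals alone (0.0646) and the replicate block (0.0675).

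**Figure D4:**
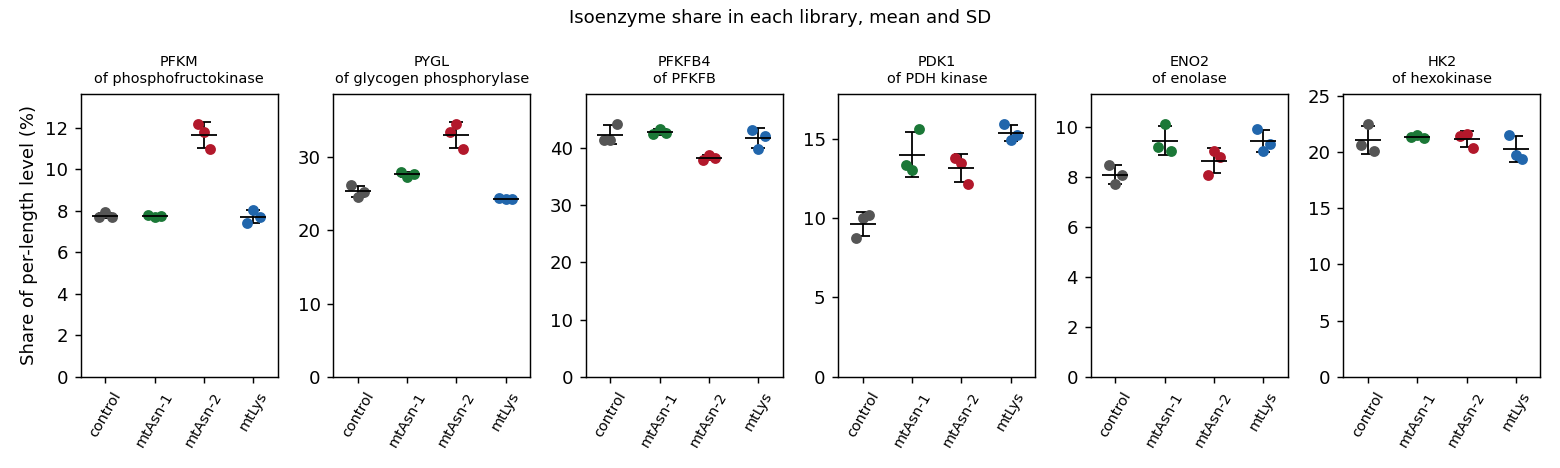
Share (%) of 1 member in the summed per-length level of its enzyme family, in each library (points) with mean and SD of 3 libraries (black lines), each axis from 0. PFKM and PYGL take larger shares after mtAsn-2 than in control, PFKFB4 a smaller one, PDK1 a larger one with all 3 LNAs, and HK2 overlaps control in each group.

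The 2 oligonucleotides against the same tRNA were then compared directly. The contrast was between those 2 groups, while the gene filter, scaling and spread came from all 12 libraries, the controls among them. Of the 32 tested members, 27 were higher after mtAsn-1 than after mtAsn-2 and 2 were lower (PFKM and ENO3), against 24.6% and 21.9% of all tested genes. Under library totals alone, 24 members were higher and 4 lower, while among all genes 2803 were higher and 5279 lower in place of 3949 and 3516. The median difference of the members was 0.36 on the log2 scale, beside 0.00 over all genes. The largest were GYS1 (0.75 ± 0.0592, adjusted p = 1.09e-10), GBE1 (0.74 ± 0.048, adjusted p = 3.84e-13) and PFKFB4 (0.69 ± 0.055, adjusted p = 2.19e-10). LDHB (0.01 ± 0.0376, adjusted p = 0.79), PYGL (-0.06 ± 0.0403, adjusted p = 0.224) and PFKFB2 (-0.14 ± 0.0663, adjusted p = 0.0755) did not pass. PFKFB2 passed without mtAsn-2 replicate 2 (0.0394), with the stricter filter (0.0454) and under library totals alone (0.00372), as did PYGL under the last (0.00218). The calls of PDK2 (0.011) and PDK4 (0.0159) failed without mtAsn-2 replicate 1 (0.0729 and 0.071), and that of PDK4 also without replicate 2 of mtAsn-1 (0.081) or of mtAsn-2 (0.0519). Both, and UGP2, also failed under library totals alone (0.212, 0.0799 and 0.0528), and PDK2 without the low-count filter (0.0562).

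The mtAsn-2 LNA was also set against mtLys, which targets another tRNA. With mtAsn-2, 28 members were lower than after mtLys and 3 were higher (PFKM, ENO3 and PYGL), against 25.7% and 22.9% of all tested genes. Under library totals alone 24 were lower and 4 higher, and among all genes 5447 were higher and 3101 lower in place of 3682 and 4125. GYS1 (-0.68 ± 0.0581), GBE1 (-0.66 ± 0.0474), ALDOC (-0.66 ± 0.111), PFKFB4 (-0.62 ± 0.0542), PDK1 (-0.56 ± 0.0696) and PGK1 (-0.52 ± 0.0448) differed by the most. ALDOA (0.00635) failed without mtAsn-2 replicate 1 (0.0515) or mtLys replicate 3 (0.0521). PDK3 (0.0307) failed without mtAsn-2 replicate 1 or 3 or mtLys replicate 1 or 3 (0.0645 to 0.163), and PFKFB2 (0.0406) without mtAsn-2 replicate 1 or 2 or mtLys replicate 2 or 3 (0.0548 to 0.225). Under library totals alone these 3 and SLC16A3 failed (0.0537, 0.142, 0.363 and 0.115) and LDHB passed (0.0338). PFKFB2 also failed with RLE factors (0.0527), DESeq2 (0.087), the replicate block (0.0522) and no low-count filter (0.127).

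Between mtAsn-1 and mtLys, which target different tRNAs, 1 member was higher after mtAsn-1 (PYGL) and 1 lower (PFKFB2), against 2.12% and 3.14% of all tested genes. The differences of the 32 members ran from -0.30 (PFKFB2) to 0.15 (PDK3) on the log2 scale. The 95% interval of the difference (normal approximation) was -0.07 to 0.11 for PGK1, -0.01 to 0.17 for GBE1, -0.04 to 0.18 for GYS1 and -0.10 to 0.05 for PKM. Among members that did not pass, it kept a single sign for PDK1 (-0.35 to -0.07), ENO3 (-0.44 to -0.08), PYGB (-0.19 to -0.04) and SLC16A3 (0.02 to 0.20). Those intervals bound the differences that these libraries leave possible and do not show that the LNAs act alike. PYGL (0.14 ± 0.0405, adjusted p = 0.0477) was lost on leaving out any of 9 libraries, all but control replicates 1 and 2 and mtAsn-2 replicate 3 (0.0505 to 0.186). PYGL also failed under library totals alone (0.0675), no low-count filter (0.0929), the stricter filter (0.0507) and the replicate block (0.0785). PFKFB2 (-0.30 ± 0.0659, adjusted p = 0.00656) failed without mtLys replicate 2 (0.0546). PDK1 passed without mtAsn-1 replicate 3 (0.0162) or mtLys replicate 2 (0.0367) and without the low-count filter (0.0126), and PYGB without mtAsn-1 replicate 2 (0.0413).

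A further 67 genes of the same pathways were listed by name, 52 of which could be tested. With mtAsn-1, 13 rose and 11 fell, after mtAsn-2, 11 rose and 15 fell, and after mtLys, 12 rose and 12 fell, to be read beside the shares of all genes given above. SLC2A3, a high-affinity glucose transporter gene, was lower with all 3 LNAs, at 161 ± 7.17 CPM in control (SD, n = 3), 93.5 ± 10.6 after mtAsn-1, 86.6 ± 0.807 after mtAsn-2 and 84.8 ± 4.88 after mtLys. Its log2 fold changes were -0.79 ± 0.0588, -0.89 ± 0.0576 and -0.92 ± 0.0578. PC, pyruvate carboxylase, which turns pyruvate into oxaloacetate, rose from 96.2 ± 8.5 CPM in control to 204 ± 12.8 after mtAsn-1 (1.08 ± 0.0848), 124 ± 13.7 after mtAsn-2 (0.37 ± 0.0844) and 182 ± 10.3 after mtLys (0.93 ± 0.0839). GAA, the lysosomal enzyme that degrades glycogen, rose with all 3 LNAs (0.63 ± 0.0853, 0.74 ± 0.0833 and 0.54 ± 0.0838).

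Among the other genes named by the same rule, PDP2, a phosphatase that reactivates pyruvate dehydrogenase, fell with all 3 LNAs (-0.44 ± 0.0578 after mtAsn-1, -0.29 ± 0.0545 after mtAsn-2 and -0.47 ± 0.0554 after mtLys). PPP1R3F, a glycogen-targeting phosphatase subunit, also fell with all 3 (-0.59 ± 0.0738, -0.39 ± 0.0688 and -0.60 ± 0.0701, in the same order). PPP1R3C, another such subunit, fell after mtAsn-2 (-0.55 ± 0.124) and did not pass after mtAsn-1 (-0.22 ± 0.129, adjusted p = 0.159) or mtLys (-0.26 ± 0.121, 0.0777). PPP1R3E rose with all 3 (0.35 ± 0.122, 0.53 ± 0.113 and 0.52 ± 0.114), as did G6PC3, a glucose phosphatase (0.42 ± 0.052, 0.25 ± 0.051 and 0.41 ± 0.0509). PHKA1, a phosphorylase kinase subunit, rose after mtAsn-2 (0.42 ± 0.0681) and did not pass after mtAsn-1 (0.13 ± 0.0732, adjusted p = 0.153) or mtLys (0.16 ± 0.0696, 0.0651). The highest adjusted p among the calls of the other pathway genes named here was 0.0211, that of PPP1R3E after mtAsn-1.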

How the data were processed

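The authors deposited unnormalised read counts by gene for 12 libraries. The submitters' processing notes name FastQC, STAR 2.6.0a, featureCounts and DESeq2 and the build hg38, with TruSeq libraries per the labels' protocols. The settings of the counting step are not stated in these sources. Of 52897 lines, 12 genes with broken lines and 26 fragments were left out. In R 4.3.3, edgeR 4.0.16 was used with TMM factors, filterByExpr (count of 10, total of 15) and the quasi-likelihood test with robust dispersion in 1 fit of 16051 genes, with Benjamini-Hochberg adjusted p under 0.05. SE was obtained by dividing the size of the log2 fold change by the root of the F statistic. Shares use counts per exon length and two-sided exact permutation tests. Members and gene lists were chosen with earlier results of these data known. All 34 members were named, and of the other pathway genes the 3 highest and 3 lowest called per comparison with control at a mean log2 CPM of at least 2. This rule names 1 further gene, not reported here. As alternatives, each library was left out in turn, and fits were made on the compared groups alone, with a replicate block, with RLE factors, with DESeq2 1.42.0, without the filter and with a stricter one (1 CPM, mean log2 CPM 2). Library totals alone were added after the data had been seen. Python 3.11.15, scipy 1.17.1 and matplotlib 3.10.9 made tables and plots.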

Additional observations from a re-analysis of the deposited data

Results flagged for a closer look

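A total of 10 members were called in opposite directions against control with the 2 LNAs directed at the same asparagine tRNA and also differed between those LNAs by the direct edgeR test. The log2 differences, mtAsn-1 minus mtAsn-2, were 0.46 for PFKP, 0.36 for TPI1, 0.54 for PGK1, 0.44 for PGAM1, 0.41 for ENO1, 0.55 for ENO2, 0.46 for PFKFB3, 0.75 for GYS1 and 0.74 for GBE1. For ENO3 the difference was -0.58, with the opposite sign. The 3 libraries of each LNA did not overlap for any of these 10 genes, which largely follows from picking them by these calls. The share of all tested genes with this pattern was not worked out. For the wider pattern given above, which also admits mtLys, it was 6.07%. Both opposed calls held under all 19 alternative settings for TPI1, PGK1, GYS1 and GBE1.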

How the results depend on the processing

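The count of members called stayed within 1.5 times its reported value for 5 of the 6 comparisons under each of the 19 alternatives. For mtAsn-1 against mtLys it was 2, and 1 under library totals alone, the stricter filter and the replicate block, and 1 to 2 on leaving out each library. Under all 19 alternatives 21 of 23 falls and 2 of 3 rises held with mtAsn-2, 12 of 15 rises and 4 of 5 falls with mtAsn-1, and 10 of 12 rises and 2 of 4 falls with mtLys. No called member changed sign. Same-numbered libraries did not deviate together (correlation -0.0991 to 0.0417 across groups), so the numbers were not taken as pairs, and the replicate block gave 21, 26 and 15 members called with mtAsn-1, mtAsn-2 and mtLys in place of 20, 26 and 16. Library totals alone moved the median of all genes by up to 0.09 on the log2 scale. The share of PDK2 among the PDK genes with mtAsn-2 was 1.67 percentage points above control per length and differed by -1.08 points without division by length. Counting depth limits ENO3 (10.2 ± 0.839 CPM in control) and PDK4 (10.6 ± 0.576) the most of the tested members, and LDHA and SLC16A1 could not be assessed.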
